A study of Rattus norvegicus with 14 samples.

Results

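The 10 genes described here mark macrophages and microglia and were followed in the choroid plexus (CP) of gonadectomized and sham-operated rats. They were Cd68, Cybb, Lilrb4, Cd163, Mrc1, Csf1r, Aif1, Itgam, Cx3cr1 and Lyve1. They were chosen by name, but with earlier results of these data known. All 10 were found among the 15154 genes that the array probes could be given. Each gene was read from its brightest probe, and its level is the log2 of the background-subtracted signal over the median signal of the array, so that 0 is the middle probe of an array and a difference of 1 is a doubling. Levels of different probes are not comparable with each other, and only the arrays are compared here. The study asked what removal of the gonads does to the transcriptome of the CP in each sex. Wistar rats aged 2 months were ovariectomized (OVX, 3 arrays), orchidectomized (OOX, 4 arrays) or sham-operated (3 arrays of females and 4 of males), and the CP of both lateral ventricles was taken 2 weeks later. Each of the 14 arrays held 200 ng of RNA pooled from 3 animals. The labels give 4 arrays for each male group, more than the pools per group that the methods name. Fewer animals per group are listed beside the hormone measurements than separate pools would need, if the arrays used those animals. Pools may thus share animals, and p-values measure only the spread between pools.

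Macrophages are the main immune cells of the CP. They lie in its stroma, between the epithelium and the fenestrated vessels, and on the apical surface of the epithelium, where they are called epiplexus or Kolmer cells, while microglia are the macrophages of the brain parenchyma. All of them depend on signalling through Csf1r, the receptor for Csf1 and Il34. Border-associated macrophages, which include those of the stroma, are known for the scavenger receptors Mrc1, Cd163 and Lyve1, and microglia and epiplexus cells for higher Cx3cr1 together with P2ry12 and Tmem119.

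The 9 markers of CP epithelium were well above background on every array, and markers of macrophages and microglia were detected as well. Of 21 general macrophage genes measured, which include 4 of the 10, 20 or 21 were well above background on each array. Of 10 microglia markers measured, 9 or 10 were, among them P2ry12, Tmem119 and Sall1, and of 9 markers of border-associated macrophages 7 to 9 were. Beside these counts, 79.7% to 87.2% of all spots were well above background on each array. Of the 10 genes, Cd68, Cybb, Csf1r, Aif1, Itgam, Cx3cr1 and Lyve1 were well above background on all 14 arrays, Cd163 and Mrc1 on 11 each and Lilrb4 on 9. No probe of the 10 was saturated. In bulk RNA, fewer cells of a type and less RNA per cell cannot be told apart.

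Expression of most macrophage genes depends on the transcription factor PU.1 (Spi1), which binds a purine-rich core. The promoters of the 3 genes whose OVX and sham female pools did not overlap, Cd68, Cybb and Lilrb4, are shown for this reason, as 250 bases before and 50 bases after the annotated start in the GRCr8 assembly (RefSeq), each on the strand of its gene. Capitals mark GAGGAA, a PU.1 core, or TTCCTC, the same letters on the opposite strand. All 3 genes lie on the minus strand.
Lilrb4, chr1:78853203-78853502: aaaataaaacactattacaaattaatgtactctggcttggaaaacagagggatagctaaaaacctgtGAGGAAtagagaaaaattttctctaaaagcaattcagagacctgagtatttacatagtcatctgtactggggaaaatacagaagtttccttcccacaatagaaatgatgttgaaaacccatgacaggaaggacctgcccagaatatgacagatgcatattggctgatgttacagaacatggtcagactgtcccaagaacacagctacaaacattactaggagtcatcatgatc
Cd68, chr10:54882392-54882691: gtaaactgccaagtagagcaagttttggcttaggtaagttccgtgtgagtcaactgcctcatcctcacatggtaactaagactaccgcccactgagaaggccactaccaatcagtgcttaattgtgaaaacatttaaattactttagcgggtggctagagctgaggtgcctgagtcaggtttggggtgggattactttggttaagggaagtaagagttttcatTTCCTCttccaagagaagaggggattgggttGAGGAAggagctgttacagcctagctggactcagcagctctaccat
Cybb, chrX:16065016-16065315: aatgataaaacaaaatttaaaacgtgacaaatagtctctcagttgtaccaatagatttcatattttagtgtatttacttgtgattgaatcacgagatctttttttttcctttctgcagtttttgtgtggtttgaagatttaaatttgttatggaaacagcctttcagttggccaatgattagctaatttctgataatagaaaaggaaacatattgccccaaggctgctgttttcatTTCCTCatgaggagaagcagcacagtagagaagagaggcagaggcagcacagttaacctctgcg
The letters occurred once in the window of Lilrb4, from base 68 to 73, once in that of Cybb, from base 237 to 242, and at 2 places in that of Cd68, from base 224 to 229 and from base 255 to 260. Of the 9 genes with a promoter in the table, 6 held the letters on either strand (also Mrc1, Csf1r and Itgam), beside 27.6% of all 33469 promoters. Aif1 was not in the table.

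**Figure D1:**
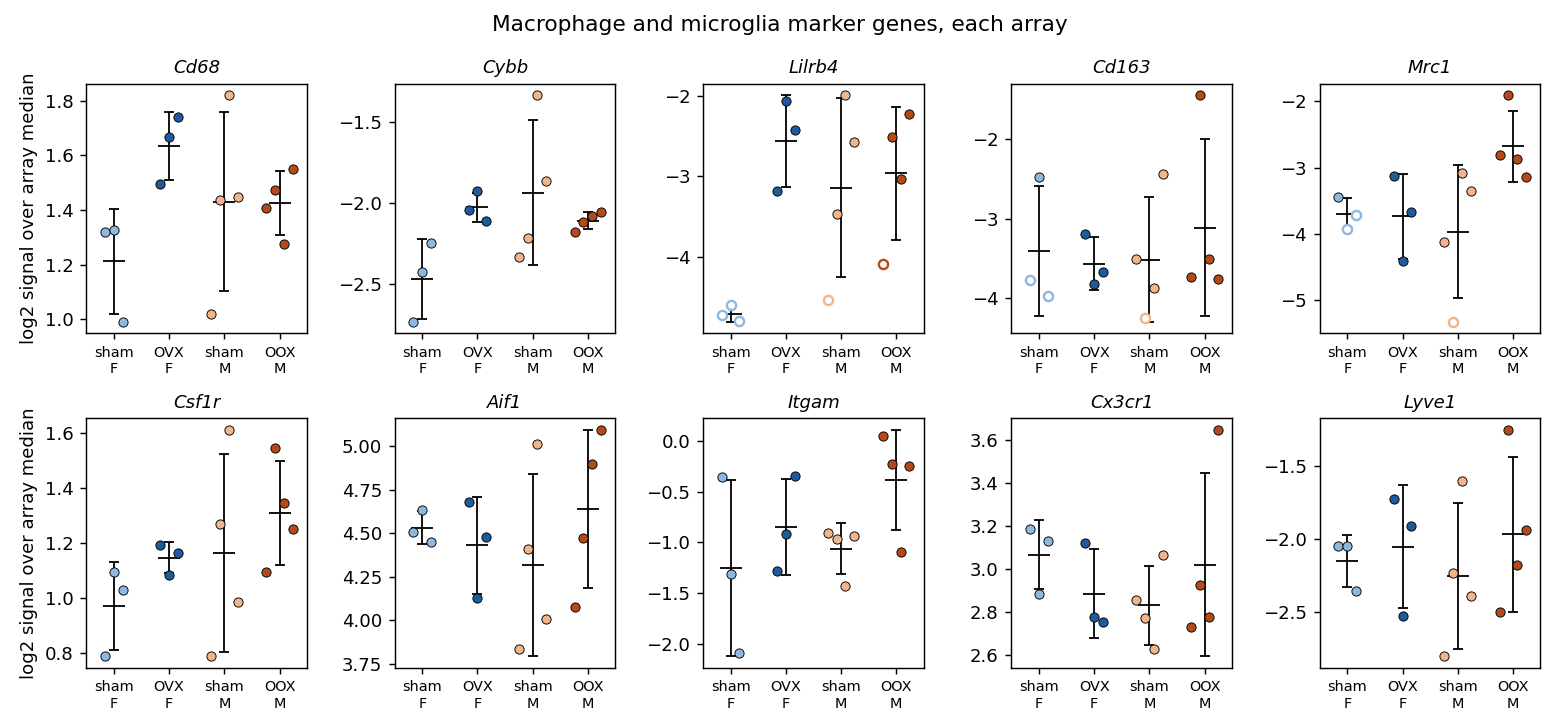
Level of each of the 10 genes on each array (log2 signal over the array median) in sham (n = 3) and OVX females (n = 3) and in sham (n = 4) and OOX males (n = 4), with the group mean and SD as a bar. Open points are not well above background. Lilrb4 is open in all 3 sham females and between -3.19 and -2.07 in the OVX females, and it runs from -4.54 to -1.99 in sham and from -4.10 to -2.23 in OOX males. Each panel has its own scale.

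In females, Lilrb4 rose after ovariectomy and was the only one of the 10 genes to pass the test. The study itself lists Lilrb4 among the genes most raised in females, so this pass is not an independent result. Lilrb4 encodes an inhibitory receptor with tyrosine-based motifs in its tail, carried by macrophages and other myeloid cells, mast cells among them. Its level was -4.72, -4.60 and -4.80 in the 3 sham females, not well above background on any of them. In the OVX females it was -3.19, -2.07 and -2.43, well above background on all 3. The lowest OVX pool stood above every sham pool. The fitted difference was 2.15 (SE 0.29, 95% interval 1.46 to 2.84, limma adjusted p = 0.0401). Since the sham pools were not well above background, the size of the change is uncertain. The mean of the OVX pools was 2.62-fold higher than the mean, over the sham arrays, of the lowest level called well above background. That level is not a strict limit. Mrc1 in sham female 3, at -3.71, was not called well above background, though the lowest level so called on that array was -3.75. Only 1 slide held both groups, with 1 OVX and 1 sham pool. The OVX pool was 1.48-fold higher than the lowest level called well above background on that sham array. The measured log2 difference between the 2 pools was 1.62.

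The call of Lilrb4 rests on small margins. Its adjusted p was above 0.05 without any of 5 of the 6 female arrays, the one exception being sham female 2, with 0.0632 as the lowest and 0.117 as the highest of these values. With normexp background correction, which adds an offset to every signal and so shrinks differences of dim ones most, the difference was 0.36 (adjusted p = 0.408). The sham female arrays also had fewer spots well above background (79.7% to 82.7%) than the OVX arrays (85.3% to 87.2%), and all 3 were scanned on the first of 2 scan days, with OVX female 1. With scan day as a block the difference was 1.52 (adjusted p = 0.126), and with slide as a block it was 1.62 (adjusted p = 0.49), both from sham levels that were not well above background. The part of slide and scan day in the result was not tested beyond these values.

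**Figure D2:**
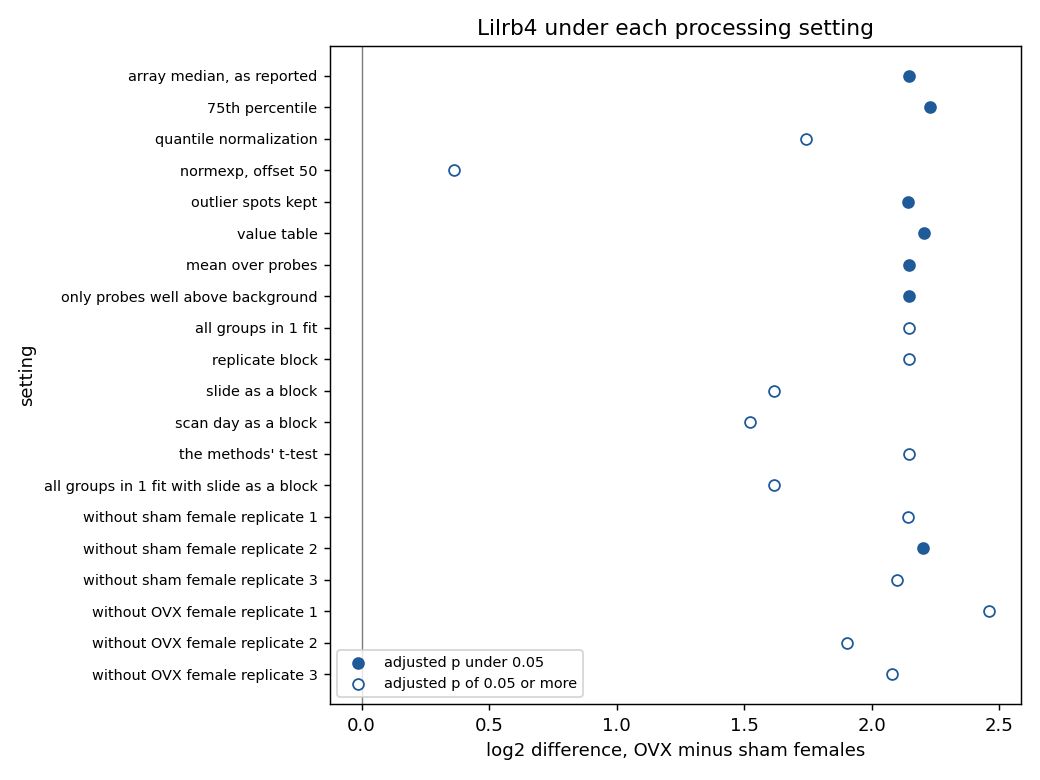
Log2 difference of Lilrb4, OVX minus sham females, with each processing setting (one per line). Filled points have an adjusted p under 0.05. The difference lies above 0 in each setting, is 0.36 with normexp and otherwise lies between 1.52 and 2.46.

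In males Lilrb4 varied from pool to pool within both groups. The 4 sham males were at -4.54, -3.47, -1.99 and -2.58, and the 4 OOX males at -4.10, -2.51, -3.03 and -2.23. The lowest pool of each group, replicate 1 in both, was not well above background. The difference was 0.18 (SE 0.59, 95% interval -1.17 to 1.52, limma adjusted p = 0.97), and within the slide that held 1 OOX and 2 sham males it was 1.78, with 1 of the 2 sham pools not well above background. The 6 other male pools, at -3.47 or above, were well above background, as none of the sham females was. The male effect minus the female effect was -1.97 (SE 0.78, limma adjusted p = 0.414), so a difference between the sexes did not pass the test. For every gene, OOX males 1 to 3 were on a slide that held no sham male. Only OOX male 4 shared a slide with sham males, so slide and surgery are largely confounded in males. The part of slide in the male differences was not tested beyond the values given for the shared slide or a slide block.

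Of the 10 genes, 1 passed in females, where 6.27% of all 15127 genes tested passed and 1.83% passed as higher. None passed in males (limma), where 2 of the 10 and 6.88% of all genes had an unadjusted p under 0.05, and 0.0859% of all genes passed after adjustment. In females 3 of the 10 had an unadjusted p under 0.05, beside 20.0% of all genes. None of the 10 passed in the male effect minus the female effect, where 0.251% of all genes passed, 1 of the 10 had an unadjusted p under 0.05 and so did 10.3% of all genes. The groups did not overlap for 3 of the 10 in females, all higher in OVX, beside 27.7% of all genes in either direction and 11.5% as higher. In males they overlapped for all 10, while 2.44% of all genes did not overlap as higher and 1.56% as lower. In either direction, the share of the 10 that did not overlap in females was thus close to that of all genes. As higher, it was above the 11.5% of all genes, and 3 of the 10 is also above 20.0% for an unadjusted p under 0.05. The 10 were chosen with earlier results known, so no conclusion is drawn from these shares. The median difference of the 10 was 0.14 in females and 0.24 in males, beside -0.07 and 0.02 for all genes, with 6 and 8 of the 10 above 0, beside 41.4% and 52.9% of all genes.

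**Figure D3:**
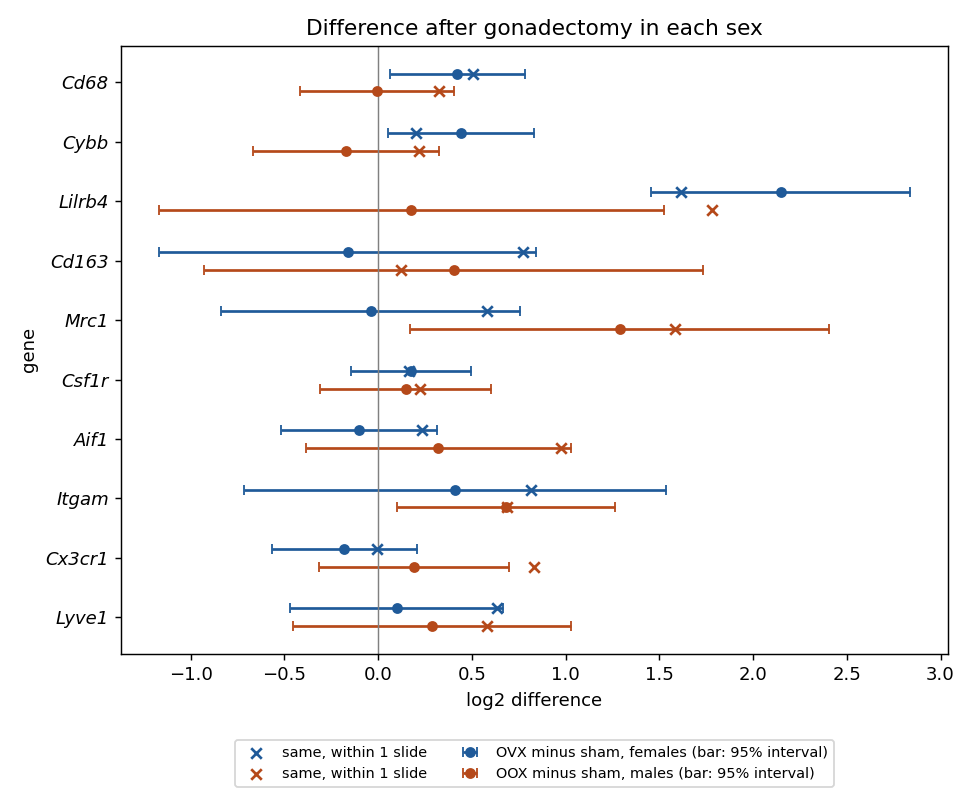
Log2 difference after gonadectomy of each of the 10 genes with its 95% interval (limma), in females (OVX minus sham, 3 against 3 pools) and in males (OOX minus sham, 4 against 4). Crosses give the difference within the 1 slide that held both groups. The interval of Lilrb4 in females, 1.46 to 2.84, lies farthest from 0, and those of Cd68 and Cybb in females and of Mrc1 and Itgam in males also lie above 0.

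Cd68 and Cybb differed between the female groups by less than the test could call. Cd68 encodes a lysosomal glycoprotein of phagocytes. Its levels were 1.32, 1.33 and 0.99 in sham and 1.50, 1.67 and 1.74 in OVX females, so that every OVX pool stood above every sham pool. The difference was 0.42 (SE 0.15, 95% interval 0.06 to 0.78, limma adjusted p = 0.161). Cybb encodes the catalytic subunit of the phagocyte NADPH oxidase. Its levels were -2.73, -2.42 and -2.25 in sham and -2.04, -1.93 and -2.11 in OVX females, again without overlap. The difference was 0.44 (SE 0.16, 95% interval 0.05 to 0.83, limma adjusted p = 0.171). Within the shared slide the differences were 0.51 for Cd68 and 0.20 for Cybb. No setting of the processing brought either gene under an adjusted p of 0.05, and none turned its direction in females.

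In males the same pair of genes varied most among the sham pools. Cd68 was at 1.02, 1.44, 1.82 and 1.45 in sham and at 1.41, 1.47, 1.27 and 1.55 in OOX males. The 4 OOX pools lay inside the range of the sham pools, and the difference was -0.00 (SE 0.18, limma adjusted p = 0.997). Cybb was at -2.33, -2.21, -1.33 and -1.86 in sham and at -2.18, -2.12, -2.08 and -2.05 in OOX males, with a difference of -0.17 (SE 0.22, limma adjusted p = 0.958). Its SD was 0.45 in sham and 0.05 in OOX males. Of the other NADPH oxidase subunits measured (4 genes), none passed in either sex, and their medians were 0.09 in females and 0.09 in males.

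Csf1r, the receptor on which macrophages depend, had 2 probes. By the brighter probe it was at 0.79, 1.09 and 1.03 in sham and at 1.19, 1.08 and 1.16 in OVX females, with overlapping groups and a difference of 0.18 (SE 0.13, limma adjusted p = 0.488). By the dimmer probe the sham females lay between 0.11 and 0.34 and the OVX females between 0.64 and 0.98, without overlap and with a difference of 0.55. The mean of both probes differed by 0.36 (limma adjusted p = 0.167), so that the size of the difference depended on the probe. Neither the brighter probe nor the mean passed, and the dimmer probe alone was not tested. In males the sham pools were at 0.79, 1.27, 1.61 and 0.98 and the OOX pools at 1.09, 1.54, 1.35 and 1.25, with a difference of 0.15 (SE 0.20, limma adjusted p = 0.958).

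The ligands and partners of the receptor were read from a list of 7 genes that also holds Csf1r. In females all 7 differences were above 0, beside 41.4% of all genes, and their median was 0.39, beside -0.07 for all genes. Of the 7, 1 gene passed, beside 6.27% of all genes in either direction and 1.83% as higher. It was Il34, the ligand of Csf1r that neurons and keratinocytes are known to supply. Il34 was at 4.85, 4.67 and 4.88 in sham and at 6.08, 5.53 and 5.84 in OVX females, and the lowest OVX pool stood above every sham pool. It rose by 1.02 (SE 0.17, limma adjusted p = 0.0401), and within the shared slide the difference was 1.21. The call was lost without any one of the 6 female arrays (adjusted p of 0.0595 to 0.125). It was also lost with slide (adjusted p = 0.534), scan day (0.165) or replicate number (0.073) as a block and with the methods' t-test (0.0966). The difference stayed between 0.89 and 1.28 in all settings. In males Il34 was at 4.72, 5.20, 5.33 and 5.05 in sham and at 4.51, 5.20, 5.08 and 4.98 in OOX pools, with a difference of -0.13 (limma adjusted p = 0.958). The male effect minus the female effect of Il34 was -1.15 (limma adjusted p = 0.145).

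Csf1, the other ligand, was at 2.40, 2.62 and 2.35 in sham and at 2.82, 3.00 and 2.68 in OVX females, without overlap. The difference was 0.38 (SE 0.15, limma adjusted p = 0.196). In males it was 0.43 (SE 0.17, limma adjusted p = 0.647), with groups that overlapped. Trem2, a lipid receptor of macrophages and microglia, differed by 0.54 in females (limma adjusted p = 0.175), and Syk, the kinase that receptors coupled to Tyrobp recruit, by 0.39 (limma adjusted p = 0.204). Neither passed, and in males the 7 genes had a median difference of 0.15, with none passing (limma; 1 gene, Csf1, had an unadjusted p under 0.05).

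**Figure D4:**
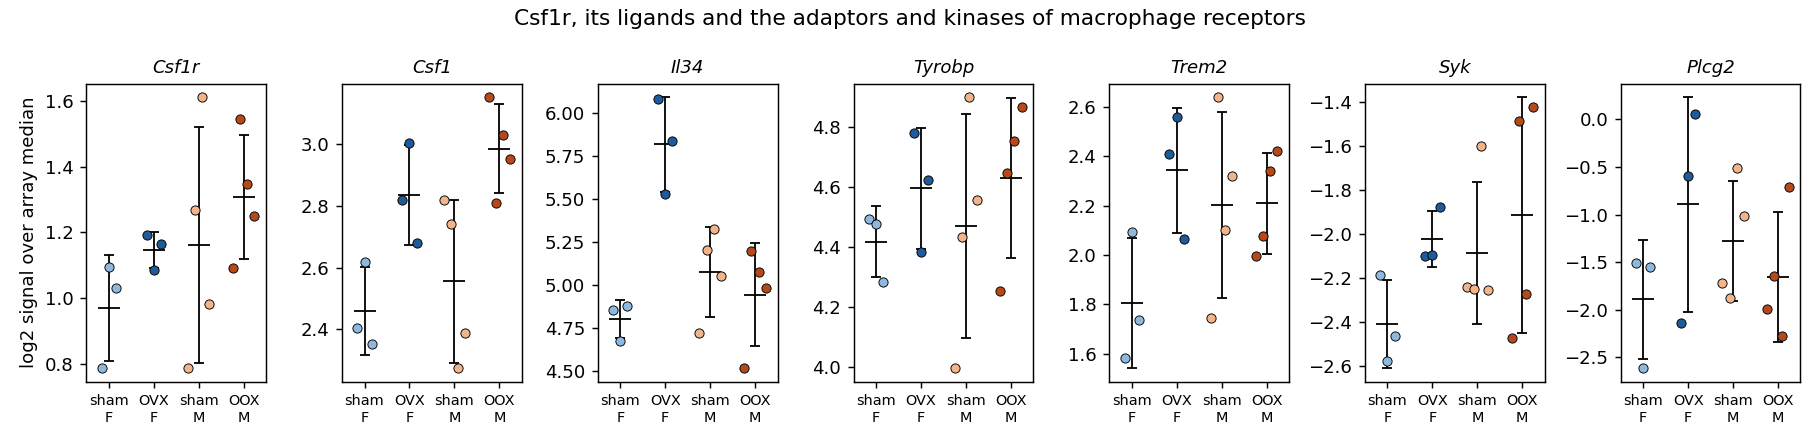
Level of Csf1r (brighter probe), its ligands Csf1 and Il34, the adaptor Tyrobp, the receptor Trem2, the kinase Syk and the phospholipase Plcg2 on each array (log2 signal over the array median), with the mean and SD of sham (n = 3) and OVX females (n = 3) and of sham (n = 4) and OOX males (n = 4). Il34 lies between 5.53 and 6.08 in OVX females and at 5.33 or below on every other array. Each panel has its own scale.

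The markers of border-associated macrophages did not pass in either sex. Mrc1, the mannose receptor, was at -3.44, -3.92 and -3.71 in sham females, well above background on 1 of 3 arrays, and at -3.13, -4.40 and -3.66 in OVX females. The difference was -0.04 (SE 0.33, limma adjusted p = 0.958). In males Mrc1 was at -4.12, -5.32, -3.07 and -3.36 in sham and at -2.81, -1.90, -2.86 and -3.13 in OOX pools. The difference was 1.29 (SE 0.49, 95% interval 0.17 to 2.41, unadjusted p = 0.0285 and adjusted p = 0.647 by limma), and the groups overlapped by the 1 OOX pool that fell below the highest sham pool. It did not pass with any setting. Sham male 2, at -5.32, was not well above background. Without that array the difference was 0.84, and with normexp correction it was 0.10.

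Cd163, the scavenger receptor for haemoglobin bound to haptoglobin, was near background. It lay between -3.97 and -2.47 in sham and between -3.83 and -3.20 in OVX females, with a difference of -0.16 (SE 0.42, limma adjusted p = 0.852). In males it lay between -4.25 and -2.43 in sham pools, and the OOX pools were at -3.74, -1.44, -3.52 and -3.76. The difference, 0.40 (SE 0.58, limma adjusted p = 0.958), rested on OOX male 2, without which it was -0.15. Hp, which encodes haptoglobin, part of the complex that Cd163 clears, was the only 1 of 6 haem-clearance genes to pass in females. It rose by 1.20 (SE 0.20, limma adjusted p = 0.0401). The call was lost with slide as a block (0.89, adjusted p = 0.565), also with all groups in 1 fit, and with scan day (0.291) or replicate number (0.0789) as a block. It was lost too with quantile normalization (0.0695) and the methods' t-test (0.0978). Without any of 5 of the 6 female arrays it was also lost (0.079 to 0.118), the exception being sham female 2.

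Lyve1, the hyaluronan receptor of stromal macrophages and lymphatic endothelium, lay between -2.36 and -2.05 in sham and between -2.53 and -1.72 in OVX females. The difference was 0.10 (SE 0.24, limma adjusted p = 0.84). In males it was 0.29 (SE 0.32, limma adjusted p = 0.945), with sham pools between -2.81 and -1.60 and OOX pools between -2.50 and -1.25. Of 4 lymphatic endothelial markers measured, 2 to 3 were well above background on each array. Their mean level was -0.99 to -0.68 in sham and -1.61 to -1.18 in OVX females, without overlap, and their median difference was -0.54. Prox1 and Ccl21, the 2 with an unadjusted p under 0.05, Ccl21 also passing as lower (adjusted p = 0.045, limma), were near background (not flagged as above it) in both female groups. The part of lymphatic cells in the level of Lyve1 was not tested. Of the 9 border-associated markers measured, the 3 receptors above included, none passed in either sex (limma), 0 in females and 1 in males had an unadjusted p under 0.05, and their medians were 0.13 in females and 0.33 in males.

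The markers carried by microglia and most macrophages did not pass either. Aif1 encodes Iba1, a calcium-binding protein of ruffling membranes used to stain these cells. It lay between 4.45 and 4.64 in sham and between 4.13 and 4.68 in OVX females, with a difference of -0.10 (SE 0.17, limma adjusted p = 0.769), and its second probe gave 0.02. In males the difference was 0.32 (SE 0.31, limma adjusted p = 0.922). Cx3cr1, the fractalkine receptor, lay between 2.88 and 3.19 in sham and between 2.76 and 3.12 in OVX females, with a difference of -0.18 (SE 0.16, limma adjusted p = 0.558). In males the difference was 0.19 (SE 0.22, limma adjusted p = 0.949). Cx3cl1, the ligand fractalkine, differed by -0.41 in females (limma adjusted p = 0.203), and the attractant Ccl2 by -0.99 (limma adjusted p = 0.0888).

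Itgam, the alpha chain of complement receptor 3, was at -0.36, -1.31 and -2.10 in sham and at -1.28, -0.92 and -0.34 in OVX females. These groups overlapped over most of their range, and the difference was 0.41 (SE 0.47, limma adjusted p = 0.651). In males it was at -0.90, -0.97, -1.43 and -0.94 in sham and at 0.05, -0.23, -1.09 and -0.25 in OOX pools, of which 3 stood above every sham pool. The difference was 0.68 (SE 0.26, 95% interval 0.10 to 1.26, unadjusted p = 0.027 and adjusted p = 0.647 by limma). Within the shared slide it was 0.69, with slide as a block it had an unadjusted p of 0.201, and no setting passed.

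Over the wider lists, no general macrophage gene and no microglia marker passed in either sex (limma). Of the 21 general macrophage genes, 1 in females and 1 in males had an unadjusted p under 0.05, beside 20.0% and 6.88% of all genes. Their medians were 0.15 and 0.15, with 15 and 16 differences above 0, beside 41.4% and 52.9% of all genes. Of the 10 microglia markers, 1 in females and 0 in males had one, with medians of 0.22 and 0.12. Of 7 inhibitory receptors measured, Lilrb4 alone passed in females, and the other 6 had a median of 0.21 and lay between -0.27 and 0.57. Of the 7 transcription factors of the myeloid lineage, none passed in either sex, and the medians were 0.23 and -0.02.

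Other myeloid cells that carry Lilrb4 were looked at beside it. The 9 markers of monocytes and neutrophils measured had a mean level of -3.31 to -2.86 in sham and of -2.75 to -1.80 in OVX females. These ranges did not overlap. Of the 9, 5 to 6 were well above background in sham and 7 to 8 in OVX females. Of all spots, 79.7% to 82.7% were so on the sham and 85.3% to 87.2% on the OVX female arrays. In males, sham male 1 had the highest mean of the list among all arrays (-1.63) and the lowest Lilrb4 of the males. Sham male 3, with the highest Lilrb4, had the lowest mean of the sham males (-3.18). OOX male 2 had the highest mean of the OOX males (-1.97), with Lilrb4 at -2.51. OOX male 1, with the lowest Lilrb4 of the OOX males (-4.10), had a mean of -3.25. The median difference of the 9 was -0.11 in males. In females none of the 9 passed (limma). Of the 9, 4 had an unadjusted p under 0.05, beside 20.0% of all genes, and all 9 differences were above 0, beside 41.4%. Cxcr2, a neutrophil chemokine receptor, differed by 1.46 (limma adjusted p = 0.0661), but it was well above background in only 1 of 3 sham females. Csf3r, the receptor for granulocyte colony-stimulating factor, differed by 0.66 (limma adjusted p = 0.0707) and Camp, which encodes a neutrophil granule peptide, by 0.47 (limma adjusted p = 0.18). In males Csf3r differed by 0.49 (unadjusted p = 0.0149 and adjusted p = 0.581 by limma). It was the only 1 of the 9 with an unadjusted p under 0.05 in males. The 5 mast cell markers had mean levels of -4.46 to -4.05 in sham and of -4.61 to -3.91 in OVX females, with 1 to 2 and 3 to 4 of them well above background. Of these 5, Ms4a2 passed as lower (-1.10) though it was never flagged as above background in females, and Tpsab1, with a difference of 0.67, had an unadjusted p under 0.05 (adjusted p = 0.123, limma). The 6 dendritic cell markers measured had mean levels of -3.09 to -2.97 in sham and of -3.30 to -2.76 in OVX females, with 5 differences above 0, and 1, the transcription factor Batf3, fell by 2.41 (limma adjusted p = 0.0305). The part of these cells in the level of Lilrb4 was not tested. Fibroblast markers (7 genes) went the opposite way, from 4.57 to 4.81 in sham and from 3.71 to 4.46 in OVX females. Of them, 1 passed as lower and 4 had an unadjusted p under 0.05 (limma). Differences in females were also below 0 for 6 of 7 neuron (median -1.10) and 4 of 5 astrocyte markers (median -0.44), none passing. Of 4 red blood cell genes, 2 were higher with an unadjusted p under 0.05 (limma) and 2 were below 0.

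Among the sham males, many macrophage genes ranked the pools alike. Sham male 3 was the highest and sham male 1 the lowest of the 4 pools in 7 and 6 of the 10 genes, while sham male 3 was the lowest in 2 of them, Itgam and Cx3cr1, and sham male 1 the highest in 1. Of the other 17 general macrophage genes, 15 were highest in sham male 3 and 15 lowest in sham male 1, with mean deviations of 0.49 and -0.48 from the mean of the sham males. Among the OOX males, 14 of the 17 were lowest in OOX male 1 (mean deviation -0.32). Of the 6 border-associated markers outside the 10, sham male 3 was the highest in 3 and the lowest in 2. The 9 microglia markers outside the 10 did not show this among the sham males, with mean deviations of -0.05 in sham male 3 and -0.01 in sham male 1.

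These pools also differed in other cells' markers. Sham male 1 had the highest mean level of the 7 neuron markers among all arrays (1.66, against -1.72 in the lowest sham male) and 3.21 for the 5 astrocyte markers (1.41 in the lowest sham male), and the lowest mean of the 7 fibroblast markers (3.65). Sham male 3 had the highest mean of the fibroblast markers (5.24). OOX male 2, which held the highest Cd163, Mrc1 and Lyve1 of the OOX males, had mean levels of 1.06 for neuron and 3.51 for astrocyte markers, the highest of the OOX males in both. Of 9 epithelium markers, 7 had differences below 0 in males (median -0.30) and 8 in females (median -0.20). In males 5 of them were lower with an unadjusted p under 0.05 (limma), beside 6.88% of all genes in either direction, and none passed in either sex. The part of these cells in the levels of the macrophage genes was not tested. Without sham males 1 and 3, a choice made after seeing the data, none of the 10 genes passed in males either (limma), and Mrc1 differed by 1.66 (adjusted p = 0.576) and Itgam by 0.57 (adjusted p = 0.585).

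**Figure D5:**
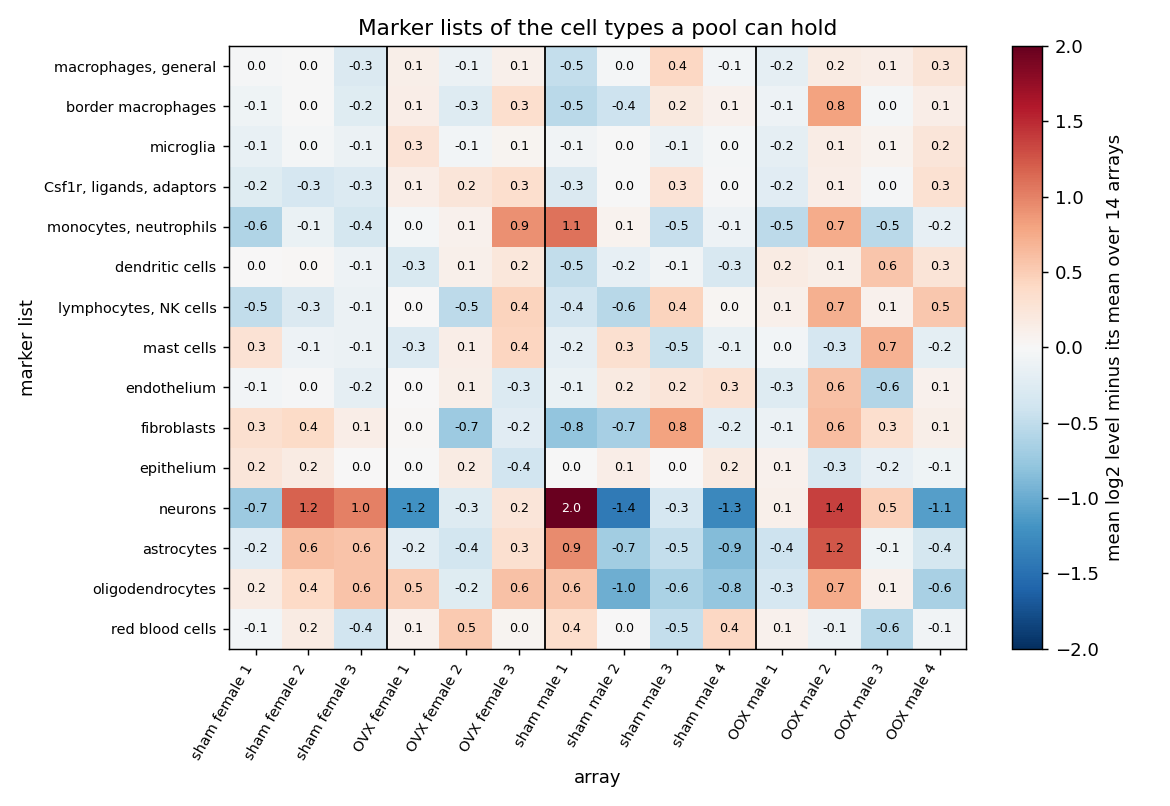
Mean log2 level of each list of marker genes (rows) on each array (columns), minus the mean of that list over the 14 arrays, for the macrophage lists, the Csf1r list and the markers of other cells. Lines part the 4 groups. Sham male 1 is low in general macrophage genes and high in neuron markers, sham male 3 is high in general macrophage genes and fibroblast markers, and the microglia row stays between -0.2 and 0.3.

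The genes most like the 10 were found by the correlation over the 14 arrays with the mean of the 7 that were well above background on every array, each centred on its own mean, among 11421 genes also well above background on every array. They were Nckap1l (Pearson's r of 0.91), a haematopoietic actin regulator, Gpha2 (0.88), Ptprc (0.87), which encodes the leukocyte antigen CD45, Rem1 (0.86) and Tyrobp (0.86), the adaptor of activating myeloid receptors. Spearman's rho was 0.88, 0.80, 0.80, 0.75 and 0.82 in the same order. Without the 2 arrays farthest from the median of that mean, Pearson's r was 0.83, 0.80, 0.83, 0.75 and 0.75 over 12 arrays. These are descriptions without a test, since the genes were picked for their likeness and all points share the 14 arrays with their scaling and pools.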

How the data were processed

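CP RNA of 14 pools was measured on 1-colour (Cy3) Agilent arrays of rat genes. Per the file headers, the deposited intensity of each spot came from Feature Extraction 10.5.1.1 (protocol GE1_105_Dec08), with the background subtracted and no scaling between arrays. The authors also deposited a table of log2 values, which they made from these arrays with BRB-ArrayTools and call median centred; its columns have medians from 7.59 to 7.88, and it was used as an alternative. No column of another series was present (0 columns).

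Control and outlier spots (222 to 877 per array) were left out, saturated spots (425 to 851) kept, spots averaged, and the array median of the log2 signal subtracted. Of 30367 probes, 18004 were named through a RefSeq table (GRCr8, names and promoters), as 15154 genes, read from the brightest probe. Well above background means flagged so by the scanner software on most spots of a probe. Between 79.7% and 87.2% of spots were, and Pearson's r between arrays of a group, across genes, was 0.974 to 0.992. The number of arrays limits the precision.

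Groups were compared within each sex with limma 3.58.1 (lmFit and eBayes, R 4.3.3) and in a fit over all arrays for the male effect minus the female effect. p-values were adjusted (Benjamini-Hochberg) over 27448 genes and unnamed probes, and a gene passed at an adjusted p under 0.05. limma was tested on simulated data. The test design assumed a mean signal column for normexp; the median signal was used in its place. Alternatives were other scalings and background correction, outlier spots kept, the value table, the mean over probes, a filter on dim probes, a joint fit of the 4 groups, a block for slide, for scan day or for replicate number, the methods' t-test and leaving out each array. Promoters were searched in Python 3.11.15 and figures drawn with matplotlib. The genes and lists were chosen with earlier results of these data known. The text names the 10 genes, up to 4 genes per related list with the smallest p (among genes measured above background throughout at least 1 of the groups compared), and the 5 genes most correlated with the 10; other cells' markers are given as counts and ranges.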

Additional observations from a re-analysis of the deposited data

Results flagged for a closer look

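Of 20 sets of 4 male pools examined (the 10 genes in each male group), 2 held a pool that stood apart by Dixon's test at the 95% level, and chance gives about 1 in 20. Cd163 in OOX male 2 was at -1.44, while the next pool was at -3.52, and the gap was 0.896 of the range of the group. Itgam in sham male 3 was at -1.43, while the next pool was at -0.97, and the gap was 0.874 of the range. Groups of 3 were not examined in this way.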

How the results depend on the processing

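Of the 10 genes, Lilrb4 alone passed in females, and it kept its direction with every alternative run. It lost the call with quantile normalization (1.74, adjusted p = 0.0682), normexp (0.36, 0.408), all groups in 1 fit (2.15, 0.0703), the replicate block (2.15, 0.073), slide as a block (1.62, 0.49), scan day as a block (1.52, 0.126), the methods' t-test (2.15, 0.0966), and all groups in 1 fit with slide as a block (1.62, 0.992); in each of these 0 of the 10 passed in females, and leaving out 1 array gave 0 to 1. It kept the call with the 75th percentile, outlier spots kept, the value table, the mean over probes and the filter on dim probes. The cause was not tested, except that blocks leave fewer degrees of freedom and slide blocks rest on 1 pair of female pools. With that t-test and the study's own limits (p under 0.05 before adjustment, and over 1.5-fold), 1 of the 10 in females (Lilrb4) and 1 in males (Itgam) were past, among 1683 and 353 of all genes. None of the 10 passed in males or in the difference between the sexes with any alternative. The scan day block could not be fitted in males, all scanned on 1 day, and no t-test was run for the difference between the sexes. Whether replicate numbers pair the pools could not be settled with so few pools. Deviations of same-numbered pools correlated at 0.14, -0.02 and 0.10 in females and at -0.09, -0.31, -0.01 and 0.14 in males. Those of different-numbered pools ran from -0.14 to 0.06 in females and from -0.30 to 0.42 in males.

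The number of all genes called in females, 948, was 64 with quantile normalization, 113 with normexp, 188 with the filter, 231 with all groups in 1 fit, 0 with the replicate block or slide as a block, 14 with scan day as a block, 3 with the methods' t-test, 19 with all groups in 1 fit and slide as a block, and 2 to 952 without 1 array. In males, 13 became 0 with normexp, all groups in 1 fit or the methods' t-test, 8 with the replicate block, 1 with all groups in 1 fit and slide as a block, 4 without sham males 1 and 3, and 6 to 12 without 1 array. In the difference between the sexes, 38 became 84 with the 75th percentile, 64 with quantile normalization, 69 with the value table, 59 with the filter, 15 with the replicate block, 10 with slide as a block, and 19 to 49 without 1 array.

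Some differences changed sign, none of them passing in either direction. In the reported fit they lay between -0.18 and 0.41 in females, between -0.17 and 0.40 in males and between -0.03 and 0.57 in the difference between the sexes. In females these were Mrc1 (0.043 with the 75th percentile, 0.016 with the value table), Aif1 (0.00039 with quantile normalization) and Lyve1 (-0.048 with quantile normalization, -0.0046 with normexp). With slide as a block, alone or with all groups, Cd163 was 0.77, Mrc1 0.58 and Aif1 0.23, and with scan day as a block Cd163 was 0.21, Mrc1 0.56, Aif1 0.15, Itgam -0.024 and Cx3cr1 0.056. In males Cd68 was 0.0091 with quantile normalization, 0.030 with normexp, 0.0086 with the value table, 0.32 with slide as a block and 0.10 with all groups and slide. Lilrb4 was -0.019 with quantile normalization and -0.15 with normexp, Cd163 -0.012 with normexp, Cybb 0.22 with slide as a block and 0.023 with all groups and slide, and Il34 0.021 with slide as a block. In the difference between the sexes, Csf1r was 0.012 with normexp, and with slide as a block Cd163 was -0.66, Itgam -0.30 and Lyve1 -0.47 (-0.14 with scan day). Leaving out 1 array at a time gave, for those that changed sign, Cd163 -0.44 to 0.31, Mrc1 -0.34 to 0.29, Aif1 -0.23 to 0.050, Itgam -0.012 to 0.86, Lyve1 -0.067 to 0.34 in females; Cd68 -0.14 to 0.13, Cybb -0.30 to 0.030, Lilrb4 -0.29 to 0.56, Cd163 -0.15 to 0.76, Cx3cr1 -0.020 to 0.29, Il34 -0.25 to 0.011 in males; Csf1r -0.16 to 0.12, Itgam -0.18 to 0.69, Lyve1 -0.048 to 0.41 in the difference between the sexes.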
